A study of Rattus norvegicus with 21 samples.

Results

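The regions described here are 2374 intermediate shore tiles of the rat genome: stretches of 250 bp with 2 to 7 CpGs and a methylation level of 20% to 80%, lying near a CpG-dense stretch that is almost free of methylation. They were taken from 140054 tiles on chromosomes 1 to 20 in which each of 21 libraries had at least 2 CpGs, so they make up 1.70% of those tiles and 6.09% of the 39011 intermediate tiles of 2 to 7 CpGs. A tile was chosen when its level, averaged over the 6 unlesioned saline libraries, lay in that range and its start lay within 2000 bp of the start of a dense unmethylated tile, that is, one with 8 or more CpGs and a level under 10%. The level of a tile is the percent of reads with C at its CpGs, which after bisulfite treatment marks methylated cytosines, with reads summed over the CpGs of the tile. The levels that the members were chosen by were thus measured in the unlesioned libraries alone, while the 15 lesioned libraries entered only through the need for 2 CpGs in every library and the count of CpGs, which took in a CpG listed in any library.

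The tissue was dorsal striatum, the main target of the dopamine fibres that ascend from the midbrain, of wild-type Sprague Dawley rats aged 120 days. The L-DOPA group (7 libraries) and the lesioned saline group (8 libraries) share a 6-OHDA lesion on the left side. This toxin of catecholamine neurons was given into the medial forebrain bundle and aimed at most of the tyrosine-hydroxylase-positive axons, and recovery took 3 weeks. The L-DOPA group then received the dopamine precursor at 6 mg/kg daily for 7 days, and its tissue was taken 3 h after the last dose, when dyskinesia was established per the labels. The third group comprised 6 unlesioned saline libraries, and the labels do not say whether these came from separate animals or from the other side of the brain. Nothing in the labels ties a library to an animal, so the errors given here are those between libraries, which may be technical.

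CpG islands are stretches rich in CpGs, often at gene starts, that stay free of methylation in most tissues, while most CpGs elsewhere in a mammalian genome are methylated. Shores are the flanks of islands where one state passes into the other, and they are known as places where methylation differs between tissues and cell types more than inside the islands. In bulk tissue, an intermediate level can stem, among other sources, from a mixture of cell types, from a difference between both copies of a chromosome or from partial methylation in every cell, and these cannot be told apart here. The level of a tile can also be intermediate because CpGs of low and of high level are summed. Of 2348 shore tiles, 40 (1.70%) held both a CpG under 20% and one over 80% in the mean of the lesioned libraries. Positions are those of rn5, and no annotation of that build was used, so no tile is assigned to a gene.

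The libraries held 5.96e+07 to 1.64e+08 reads summed over cytosines, with a median of 37 to 70 reads at each. A shore tile had a median of 104 to 263 reads in a library and never fewer than 20. In 3 libraries the reads were concentrated in CpG-dense tiles: the median number of reads per tile of 15 or more CpGs was 30.2 times that per tile of 2 or 3 CpGs in L-DOPA replicate 3, 31.3 times in L-DOPA replicate 7 and 33.6 times in unlesioned saline replicate 1, against 13.7 to 24.7 times in the other 18. These 3 stood apart in the shore tiles, and results that rest on them are given with and without them. Library numbers in the deposited names form 2 separate runs, called series 1 (L-DOPA replicates 1 to 3 and lesioned saline replicates 1 to 6) and series 2 (the other 12), and the sources used here do not give their meaning.

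Of the shore tiles, 691 had 2 CpGs, 589 had 3, 452 had 4, 310 had 5, 187 had 6 and 145 had 7. Their levels in the unlesioned libraries, which chose them, ran from 20.0% to 79.9% with quartiles at 27.7%, 39.6% and 58.7%. They were weighted towards the low end of the range: 726 (30.6%) lay at 20% to 30%, against 11.8% of the other 36637 intermediate tiles of 2 to 7 CpGs, and 291 (12.3%) at 70% to 80%, against 25.9%. The tiles nearest the limits on the outside, among those that met the rest of the rule, had 19.997% and 80.03%. There were 87 members at 20% to 21% and 105 tiles at 19% to 20% outside, 34 members at 79% to 80% and 41 tiles at 80% to 81% outside, and 222 members at 2000 bp from an island tile and 231 tiles at 2250 bp that otherwise met the rule. No limit of the rule therefore fell in a gap of the distribution.

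The shore tiles lay on every chromosome from 1 to 20. Per 100 dense unmethylated tiles of the same chromosome there were 12.4 on chromosome 20, 11.2 on chromosome 12 and 11.0 on chromosome 19, but 5.90 on chromosome 8 and 5.92 on chromosome 14. The island lay at the lower coordinate for 1190 of them and at the higher coordinate for 1184, and 67 had an island tile within 2000 bp on both sides.

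Away from the islands, methylation rose over the whole 2000 bp. All tiles of 2 to 7 CpGs that start 250 bp from a dense unmethylated tile averaged 3.83% ± 0.190 in L-DOPA (SD, n = 7), 3.86% ± 0.217 in lesioned saline (n = 8) and 3.94% ± 0.2501 in unlesioned saline libraries (n = 6). At 1000 bp the means were 26.7% ± 2.12, 27.4% ± 1.03 and 27.7% ± 2.22 in the same groups, and at 2000 bp 50.1% ± 3.02, 50.9% ± 1.27 and 51.2% ± 2.66. The means of the groups lay within 1 SD of each other at each of these distances. More than 10000 bp away the level was 66.3% ± 3.24 in L-DOPA, 67.4% ± 1.31 in lesioned saline and 67.7% ± 2.93 in unlesioned saline libraries.

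The rise was mostly an exchange of unmethylated tiles for intermediate and methylated ones. At 250 bp, 97.5% of 9923 tiles of 2 to 7 CpGs were under 20% in the unlesioned libraries and 2.47% were intermediate. At 1000 bp, 56.6% of 1043 tiles were under 20%, 35.9% were intermediate and 7.57% were over 80%, and at 2000 bp 26.3%, 42.9% and 30.8% of 517 tiles. The share of intermediate tiles then changed little, with 44.5% at 2250 to 5000 bp, 43.3% at 5250 to 10000 bp and 42.0% beyond, while the share over 80% kept growing, from 34.9% to 42.5% and 48.3%. Within the shores, intermediate tiles were thus no commoner than in the rest of the genome; what set the first 1000 bp apart was how many tiles were under 20% and how few were over 80%.

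The shore tiles were also higher at 2000 bp than at 250 bp, although the rule held each between 20% and 80%. Members at 250 bp averaged 31.0% ± 2.78 in L-DOPA, 31.7% ± 1.27 in lesioned saline and 32.7% ± 2.78 in unlesioned saline libraries (SD, n = 7, 8 and 6). At 2000 bp they averaged 47.9% ± 5.29, 49.3% ± 2.32 and 49.9% ± 4.76. In all 3 groups the difference between these distances was larger than the spread between libraries at either. The climb was not steady: the means were 45.1%, 46.4% and 47.1% at 1000 bp in the same groups and 43.8%, 45.1% and 45.8% at 1250 bp, and those at 1750 bp, 47.9%, 49.5% and 49.97%, were within 1 SD of those at 2000 bp.

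**Figure D1:**
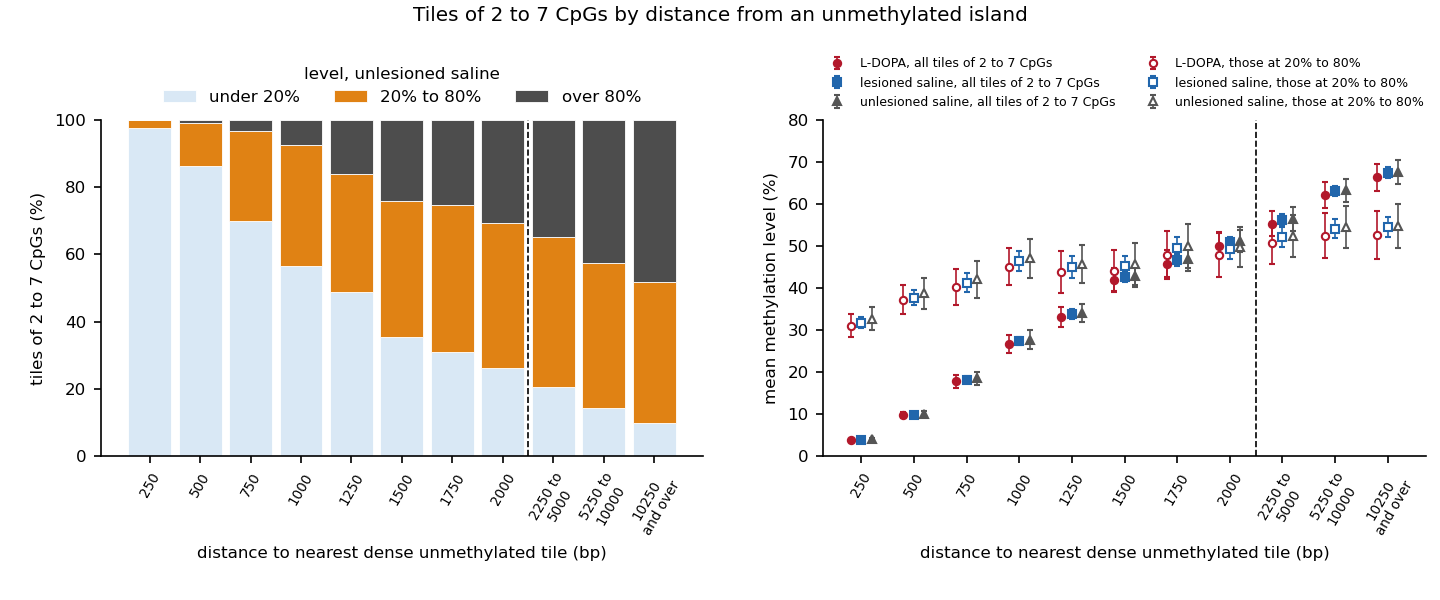
Left, the share (%) of tiles of 2 to 7 CpGs in 3 classes of level in the unlesioned saline libraries, by distance in bp from the nearest dense unmethylated tile. Right, the mean methylation level (%) of all such tiles (filled) and of the intermediate ones (white) in L-DOPA, lesioned saline and unlesioned saline libraries, with SD between libraries; intermediate tiles left of the dashed line at 2000 bp are the shore tiles. All tiles rise steeply and the intermediate ones by less, from 31.0% to 32.7% at 250 bp to 47.9% to 49.9% at 2000 bp over the 3 groups.

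The level that chose the tiles was largely found again in the lesioned libraries, whose levels the rule did not use. The mean of the L-DOPA libraries lay between 20% and 80% for 2178 of the 2374 shore tiles (91.7%), and that of the lesioned saline libraries for 2201 (92.7%). The other intermediate tiles, chosen by the same range, had 93.97% in L-DOPA and 93.8% in lesioned saline libraries. Among the tiles that left the range, more were under it than over it, with 165 below and 31 above in L-DOPA and 134 below and 39 above in lesioned saline libraries. More members also lay close to the lower limit when chosen, 87 at 20% to 21% against 34 at 79% to 80%. These counts are therefore not read as a shift. The means ran from 11.4% to 87.3% in L-DOPA and from 10.7% to 86.5% in lesioned saline libraries. In 1097 shore tiles (46.2%) every one of the 15 lesioned libraries was between 20% and 80%, against 46.9% of the other intermediate tiles.

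Dense unmethylated tiles that touch, or that lie no more than 1 tile apart, form 13281 islands, and 1904 of these (14.3%) had at least 1 shore tile. Of the 1904, 1510 had 1 shore tile, 331 had 2 and 63 had 3 or more, up to 4. Shore tiles on both sides were found at 134 islands (7.04%). The share with a shore tile was 14.6% of islands of 1 tile, 13.7% of those of 2 or 3 tiles, 15.5% of those of 4 to 7 and 18.2% of the 77 of 8 or more, so it varied little with the length of the island. Since only tiles with reads in all 21 libraries were counted, these shares also depend on which flanks were sequenced.

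The islands beside shore tiles were nearly free of methylation, at a slightly higher level than the rest. The 4254 dense tiles of islands with a shore tile averaged 2.42% ± 0.0949 in L-DOPA, 2.40% ± 0.194 in lesioned saline and 2.41% ± 0.133 in unlesioned saline libraries. The 25036 dense tiles of islands without one averaged 1.95% ± 0.101, 1.95% ± 0.188 and 1.97% ± 0.138 in the same groups. The lowest library of the first set, 2.20%, lay above the mean of every group in the second set but below its highest library, 2.24%. Both sets were measured in the same libraries, so these ranges do not compare the sets library by library.

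Shore tiles were mostly single. They formed 2145 runs of touching tiles, of which 1931 held 1 tile, 200 held 2 and 14 held 3 or more. The next tile towards the island was measured for 835 members and was lower than the member in 728 of them (87.2%), with a median of 11.8% in the lesioned libraries against 32.0% for these members. For 245 of the 835, those at 250 bp, that tile was the dense unmethylated tile itself, which the rule held under 10%. Among the other 590 it was lower in 483 (81.9%), with a median of 18.8% against 36.0%. These members too were chosen for an intermediate level, while their inner tiles were not. In the unlesioned libraries, 97.5% of tiles of 2 to 7 CpGs at 250 bp were under the lower limit of level, and 86.2% at 500 bp. The choice of members thus favoured a lower inner tile near the island, and its part in the 81.9% was not tested. The next tile away from the island was measured for 400 and was higher in 233 (58.3%), with a median of 40.5% against 35.8%. With both neighbours measured, in 138 members, the member lay between an inner tile that was lower and an outer tile that was higher in 68 (49.3%) and above both in 54 (39.1%). Without the members at 250 bp there were 94 with both neighbours, of which 44 (46.8%) lay between and 34 (36.2%) above both. A steady outward climb from tile to tile was therefore found in about as many of these members as not. The counts of members between and above both each require a lower inner tile, which the choice of members favoured.

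Of the islands, 13 tied at 4 shore tiles, and the first 3 in genome order show how the flanks differ. On chromosome 1, the island at 82709251 to 82709750 averaged 2.75% ± 0.556 in L-DOPA, 2.66% ± 0.635 in lesioned saline and 2.72% ± 0.745 in unlesioned saline libraries. Its 3 shore tiles at the lower coordinate, 2000, 1500 and 1250 bp out, formed a plateau, at 32.4%, 33.6% and 34.0% in L-DOPA and 33.2%, 36.0% and 34.8% in lesioned saline libraries. The tile 1000 bp beyond the other end stood at 62.7% ± 7.20 in L-DOPA, 60.5% ± 7.88 in lesioned saline and 64.7% ± 8.03 in unlesioned saline libraries, so the flanks of this island differed by more than the spread between libraries.

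The second island, on chromosome 1 at 263583751 to 263584750, had a flank that did not climb steadily. Beyond its higher end the tile at 1000 bp averaged 46.1% ± 7.05 in L-DOPA, 51.2% ± 3.46 in lesioned saline and 54.6% ± 10.8 in unlesioned saline libraries. Farther out, at 1500 bp, the tile averaged 24.5% ± 12.05, 21.6% ± 7.27 and 29.0% ± 10.8 in the same groups. On the other side, the shore tile at 1000 bp averaged 14.2% ± 6.45 in L-DOPA and 15.2% ± 7.74 in lesioned saline, under the limit of the rule, and 20.5% ± 15.4 in unlesioned saline libraries, where the values ran from 6.17% to 50.0%. This member met the rule through a wide spread rather than a shared level.

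The third, on chromosome 4 at 208748501 to 208748750, climbed on both sides. Its lower flank averaged 52.7% ± 15.6 at 750 bp and 76.4% ± 10.3 at 1000 bp in L-DOPA libraries, against 56.9% ± 4.34 and 76.9% ± 7.43 in lesioned saline libraries. Its higher flank averaged 52.1% ± 11.1 at 750 bp and 71.8% ± 14.9 at 1250 bp in L-DOPA libraries, against 59.1% ± 10.5 and 84.9% ± 5.51 in lesioned saline libraries. L-DOPA libraries overlapped lesioned saline libraries in all 4 shore tiles of this island.

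**Figure D2:**
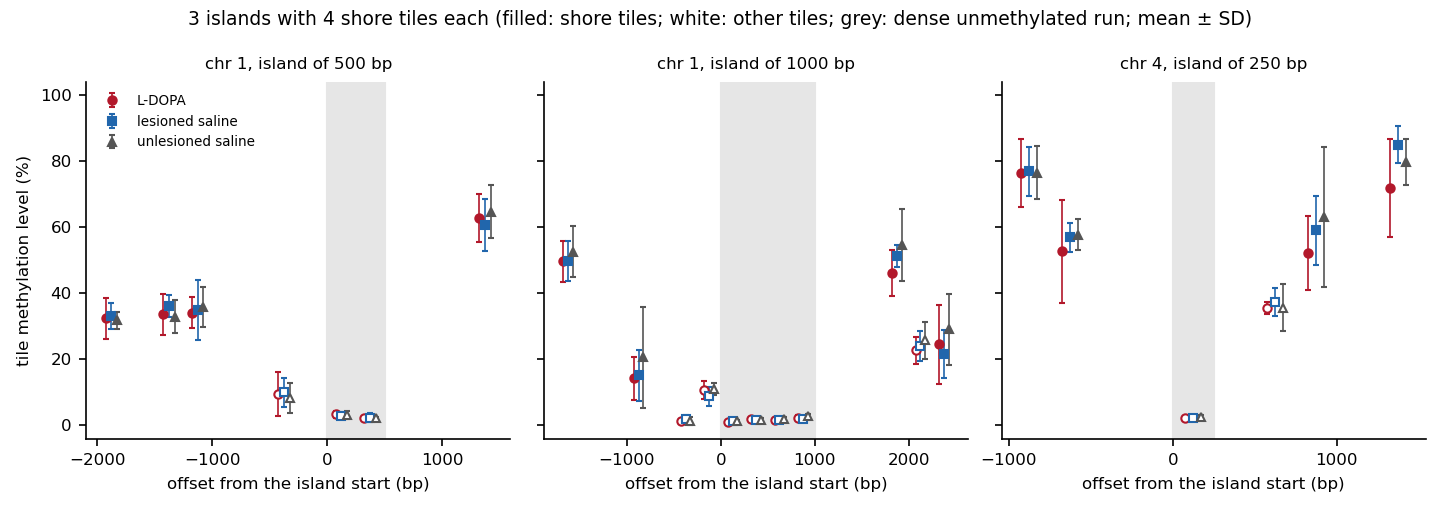
Mean methylation level (%) of each measured tile, with SD between libraries, by offset in bp from the start of the island, for the 3 islands described in the text, with L-DOPA, lesioned saline and unlesioned saline libraries side by side. Shore tiles are filled, other tiles white, and the run of dense unmethylated tiles is shaded; the first island has a plateau of 31.8% to 36.0% on one flank, the second falls again farther out, and the third climbs on both sides.

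Within a tile, most single CpGs were intermediate themselves. With 2 or more CpGs present in all 15 lesioned libraries, 2348 shore tiles held 7162 such CpGs, of which 76.4% averaged 20% to 80% over these libraries, 17.6% were lower and 5.98% higher. All CpGs were intermediate in 1197 tiles (51.0%), and only 40 (1.70%) held both a CpG under 20% and one over 80%. A boundary between unmethylated and methylated CpGs that falls inside a tile was thus rare at the distances measured, with a median span of 47 bp between the first and the last of these CpGs. Of the CpGs of the other intermediate tiles, 79.5% averaged 20% to 80%. All CpGs were intermediate in 59.4% of those tiles, and 3.12% held both a CpG under 20% and one over 80%. Mostly intermediate CpGs were therefore not particular to the shores, and the choice of tiles by a level of 20% to 80% favours them.

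The CpG farthest from the island was more methylated than the nearest one in 1301 of the 2348 shore tiles (55.4%), by a median of 2.21 points over all of them. In the other intermediate tiles, oriented by their nearest dense unmethylated tile in the same way, the share was 49.96% of 36224 and the median -0.0125 points. The share was 57.5% among the 1398 shore tiles at 250 to 1000 bp and 52.3% among the 950 at 1250 to 2000 bp. In single libraries, where both CpGs can have equal levels, the share was taken over the tiles in which these CpGs differed. On that count it was above 50% in each of the 21 libraries, from 52.0% to 56.6%. It was lowest, at 52.0% to 52.2%, in the 3 libraries with concentrated reads. A rise of more than 20 points was found in 454 shore tiles (19.3%) and a fall of more than 20 points in 324 (13.8%).

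Among shore tiles with 4 or more CpGs, the 5 with the largest outward rise in the lesioned libraries were alike in all 3 groups. On chromosome 19, in the tile at 35782751 to 35783000, the CpG at 35782782 averaged 9.35% ± 7.46 in L-DOPA, 13.9% ± 8.71 in lesioned saline and 8.00% ± 3.95 in unlesioned saline libraries. The next CpG outwards, at 35782790, averaged 98.9% ± 1.98, 97.7% ± 3.10 and 97.1% ± 2.14 in the same groups. Of the 5 CpGs of this tile, 4 were present in all 21 libraries, and of these 4 the first was almost unmethylated and the other 3 almost fully methylated.

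The other 4 tiles with the largest rise showed the same kind of contrast over longer spans. All 5 are extremes picked from 1058 shore tiles, and only CpGs present in all 21 libraries are described. The chromosome 10 tile holds 6 CpGs, and its contrast rests on the CpGs given here. Reads were as few as 10 in a library at 179602479 on chromosome 4 and at 35782790 on chromosome 19. On chromosome 4, in the tile at 179602251 to 179602500, the CpG at 179602479 on the island's side averaged 1.73% ± 2.39 in L-DOPA, 6.54% ± 7.02 in lesioned saline and 10.9% ± 9.69 in unlesioned saline libraries, and the outermost, at 179602306, 86.5% ± 11.2, 84.1% ± 8.63 and 86.7% ± 8.405. On chromosome 10, in the tile at 90184001 to 90184250, the inner CpG at 90184106 averaged 1.36% ± 2.19 in L-DOPA, 0.676% ± 1.91 in lesioned saline and 0.174% ± 0.425 in unlesioned saline libraries, and the CpG at 90184154 averaged 78.9% ± 7.58, 83.6% ± 7.63 and 79.96% ± 5.83. On chromosome 7, in the tile at 92232001 to 92232250, both inner CpGs averaged 15.2% to 25.7% and both outer ones 91.7% to 96.0% over the groups. The last, on chromosome 3 at 20841251 to 20841500, was graded, with 20.5%, 74.5% and 92.9% in L-DOPA, 19.4%, 74.7% and 88.4% in lesioned saline and 20.6%, 72.4% and 83.6% in unlesioned saline libraries.

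**Figure D3:**
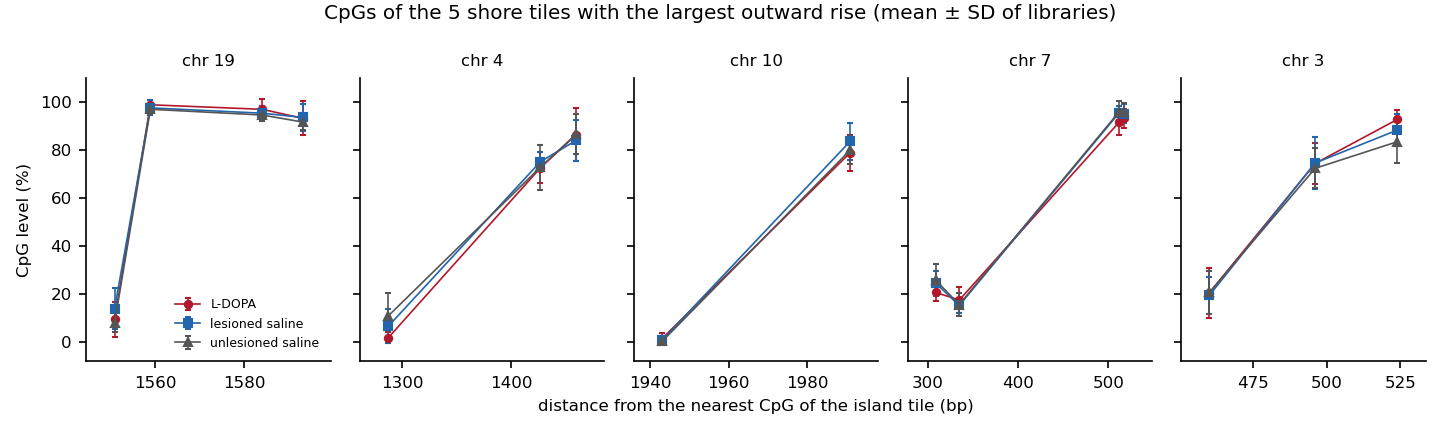
Level (%) of each CpG present in all 21 libraries, with SD between libraries, by distance in bp from the nearest CpG of the island tile, in the 5 shore tiles with the largest outward rise, for L-DOPA, lesioned saline and unlesioned saline libraries. The 3 groups lie close together at each CpG, and on chromosome 19 the level jumps from under 14% to over 97% between neighbouring CpGs.

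The median spread between libraries was somewhat lower than that of other intermediate tiles. Over the L-DOPA libraries the median SD of a shore tile was 7.20 points and over the lesioned saline libraries 6.24 points. The other intermediate tiles had 8.53 and 6.87 points in these groups. Without L-DOPA replicates 3 and 7, which have concentrated reads, the L-DOPA value was 5.59 points for shore tiles and 6.02 for the others. Within bands of 10 points of level, the shore tiles had a lower median SD over the lesioned saline libraries than the other tiles in 5 of 6 bands, for instance 6.26 against 7.30 points at 30% to 40%, with a median of 190 against 165 reads. At 50% to 60% they had 7.53 against 7.86 points, with a median of 145 against 152 reads, and at 60% to 70% 7.13 against 7.10 points. Over the L-DOPA libraries the shore tiles had the lower median SD in each band, for instance 7.21 against 8.71 points at 30% to 40%.

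Among the 1113 shore tiles with at least 100 reads in every library, the steadiest had almost the same tile level in every library. These levels sum the reads of all CpGs of a tile, and the levels of their single CpGs are not given here. The tile on chromosome 2 at 135911251 to 135911500, with 2 CpGs 1000 bp from an island tile, ran from 44.8% through a median of 46.3% to 48.2% in L-DOPA, from 45.9% through 46.3% to 48.1% in lesioned saline and from 45.4% through 46.4% to 47.8% in unlesioned saline libraries. Another, on chromosome 4 at 181497001 to 181497250, ran from 63.6% to 66.5%, from 64.1% to 66.9% and from 63.1% to 65.9% in the same groups. In neither tile were the 3 libraries with concentrated reads the 3 lowest, as they were in the mean of all shore tiles. They did set ends of these narrow ranges. On chromosome 2, L-DOPA replicate 3 was the lowest of all libraries, at 44.8%, and L-DOPA replicate 7 the highest, at 48.2%. On chromosome 4, unlesioned saline replicate 1 was the lowest, at 63.1%. Chromosome 10 at 13837751 to 13838000 varied little in lesioned saline libraries, from 19.1% to 23.6%, but ran from 16.9% to 26.4% in L-DOPA and from 15.7% to 24.3% in unlesioned saline libraries.

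The 3 with the largest SD over the lesioned saline libraries differed in which libraries stood apart. The tile on chromosome 10 at 4522501 to 4522750 was at 83.1% in lesioned saline replicate 1 and 77.9% in replicate 3 and at 39.4% to 45.4% in the other 6. In L-DOPA libraries it ran from 39.7% through a median of 43.5% to 63.1%, and in unlesioned saline libraries from 26.7% through 40.6% to 75.3%. In each group, at least 1 library thus stood far above the median.

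Chromosome 13 at 107465251 to 107465500 ran from 19.6% through 61.0% to 74.2% in L-DOPA, from 38.1% through 61.1% to 75.5% in lesioned saline and from 20.3% through 64.0% to 75.3% in unlesioned saline libraries. Its 3 lowest values, 19.6%, 26.9% and 20.3%, were those of the 3 libraries with concentrated reads. Chromosome 3 at 129617001 to 129617250 ran from 24.5% through 30% to 51.8% in L-DOPA, from 24.5% through 35.8% to 68.2% in lesioned saline and from 26.7% through 38.9% to 58.0% in unlesioned saline libraries. There lesioned saline replicate 6 held the 68.2%, and the next library of its group stood at 44.2%.

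The mean level of the 2374 shore tiles ran from 35.5% through a median of 43.7% to 45.9% in L-DOPA, from 39.2% through 43.3% to 46.5% in lesioned saline and from 35.8% through 45.1% to 47.4% in unlesioned saline libraries. Group means were 41.8% ± 4.38 (SD, n = 7), 42.9% ± 2.15 (n = 8) and 43.7% ± 4.33 (n = 6). The groups overlapped almost completely. The 3 libraries with concentrated reads had the 3 lowest means, 35.5% to 35.8%, against 39.2% to 47.4% in the other 18, and the smallest shares of shore tiles at 20% to 80%, 74.4% to 77.7% against 79.9% to 92.0%. The dense unmethylated tiles of the same libraries did not stand apart, with 1.90% to 2.12% against 1.80% to 2.31%, but other tiles did. The 3 libraries were also lowest in the other intermediate tiles, with 43.8% to 45.3% against 49.3% to 59.1%, in tiles over 80%, with 87.5% to 88.1% against 89.5% to 91.5%, and over all tiles, with 41.7% to 42.3% against 44.0% to 47.7%.

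L-DOPA libraries lay below lesioned saline libraries by 1.10 points over the shore tiles (difference -1.10, SE 1.82), which is less than the spread between libraries. Without the 3 libraries with concentrated reads the difference turned to 1.40 points (SE 0.940), with L-DOPA above. Within series 1 it was -0.662 points (SE 3.35) and within series 2 -1.96 points (SE 2.16). The other intermediate tiles gave -1.85 points (SE 2.29) in all libraries and 1.39 points (SE 1.00) without the 3. Lesioned minus unlesioned saline was -0.755 points (SE 1.92) and -2.33 points (SE 1.24) without the 3, and L-DOPA minus unlesioned saline -1.85 points (SE 2.42) and -0.934 points (SE 1.13). In series 2, the one with unlesioned libraries, these were -0.0408 and -2.002 points. The comparisons with unlesioned libraries set the groups against the libraries that chose the tiles, and nothing is read from them.

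**Figure D4:**
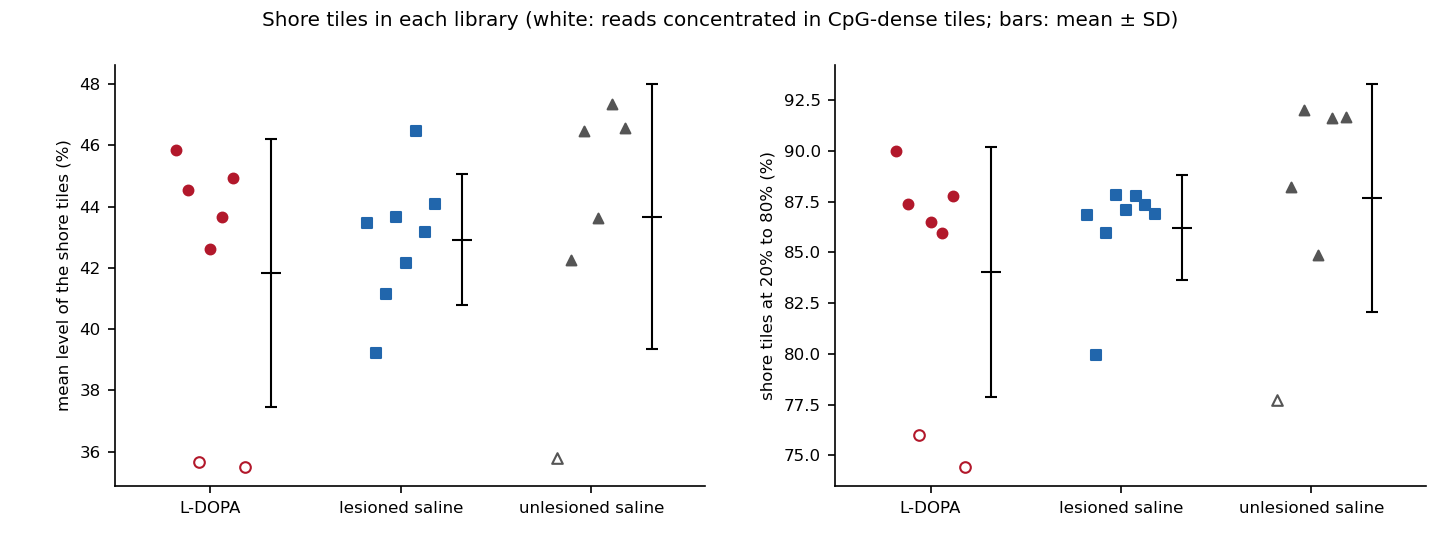
Mean level (%) of the 2374 shore tiles (left) and the percent of them at 20% to 80% (right) in each library of the L-DOPA, lesioned saline and unlesioned saline groups, with the mean and SD of each group beside the points. White points are the 3 libraries with concentrated reads, which have the lowest means, 35.5% to 35.8%; the vertical axes do not start at 0.

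The question named by the title of the study is how methylation differs between L-DOPA and saline in lesioned animals, and no shore tile passed an adjusted p of 0.05 there. The test was a quasi-binomial logistic model of the counts in each of 180850 tiles of all kinds, with Benjamini-Hochberg adjustment over all of them, and 0% of all tiles were called. The smallest adjusted p of a shore tile was 0.9999, and limma called 0 on log2 odds. With an unadjusted p under 0.05 the quasi-binomial model had 67 shore tiles (2.82%), against 3.83% of all tested tiles. Of the 67, 48 (2.02%) were lower under L-DOPA, against 2.30% of all tiles, and 19 (0.8003%) were higher, against 1.53%. Among the other intermediate tiles, 2.57% were lower and 0.620% were higher. With all libraries in the model, the share of shore tiles that were lower was thus close to that of all tiles. The share that were higher lay between those of the other intermediate tiles and of all tiles, and nothing is read from either.

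The differences themselves were small and centred a little below 0. L-DOPA was lower in 1504 of the 2374 shore tiles (63.4%), with a median difference of -1.005 points. The share was 58.3% among all tested tiles, with a median of -0.256 points, and 69.4% among the other intermediate tiles, with a median of -1.72 points. The middle 95% of the shore tiles ran from -8.27 to 5.86 points, and the median standard error of a tile's difference was 3.62 points. Without the 3 libraries with concentrated reads the direction turned round: L-DOPA was lower in 32.9% of the shore tiles, with a median of 1.38 points, and 106 (4.47%, against 4.35% of all tiles) had an unadjusted p under 0.05. Of these, 16 (0.674%) were lower, against 1.47% of all tiles, and 90 (3.79%) were higher, against 2.88% of all tiles and 3.61% of the other intermediate tiles. Which way the shore tiles leaned therefore rested on L-DOPA replicates 3 and 7. Leaving out L-DOPA replicate 1 instead raised the 67 to 112 (4.72%, against 4.92% of all tiles).

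The 5 shore tiles with the smallest unadjusted p among those lower under L-DOPA, none of which passed adjustment, began with chromosome 16 at 5732751 to 5733000, of 4 CpGs and 1750 bp from an island tile. It ran from 36.7% through a median of 43.8% to 56.6% in L-DOPA, from 51.0% through 57.2% to 61.0% in lesioned saline and from 42.7% through 54.3% to 60.3% in unlesioned saline libraries. The difference from lesioned saline was -11.0 points (SE 2.98, unadjusted p = 0.000401, adjusted 0.9999, quasi-binomial model). L-DOPA replicates 4 and 6 lay within the range of lesioned saline and the other 5 below it.

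The tile on chromosome 5 at 62639001 to 62639250, of 2 CpGs and next to its island tile, ran from 18.3% through 23.8% to 35.1% in L-DOPA, from 25.8% through 32.0% to 40.7% in lesioned saline and from 20.0% through 24.4% to 32.4% in unlesioned saline libraries. The difference was -8.89 points (SE 2.79, unadjusted p = 0.00133). The lesioned saline median was the highest of the groups, and the ranges of all groups overlapped. The unlesioned values also chose the tile, so nothing is read from their place. Chromosome 6 at 139496751 to 139497000, also of 2 CpGs but 2000 bp out, ran from 36.4% through 43.4% to 57.1% in L-DOPA, from 47.8% through 56.1% to 72.7% in lesioned saline and from 51.0% through 58.7% to 64.8% in unlesioned saline libraries. Its difference, -11.9 points (SE 4.03, unadjusted p = 0.00198, quasi-binomial model), was the largest of the 10 named tiles. Here the L-DOPA median was the lowest of the groups, whose ranges overlapped.

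Both remaining tiles had 6 CpGs and smaller differences. Chromosome 5 at 161163501 to 161163750 ran from 13.6% through 17.0% to 19.8% in L-DOPA, from 13.9% through 22.9% to 27.8% in lesioned saline and from 18.3% through 19.02% to 25.3% in unlesioned saline libraries, a difference of -5.52 points (SE 1.81, unadjusted p = 0.00364). Lesioned saline replicate 8, at 13.9%, lay among the lowest L-DOPA libraries and the other 7 above all of these. Chromosome 4 at 219143251 to 219143500 ran from 15.4% through 22.9% to 27.3% in L-DOPA, from 22.4% through 27.7% to 33.7% in lesioned saline and from 19.3% through 24.9% to 25.3% in unlesioned saline libraries, a difference of -6.05 points (SE 1.92, unadjusted p = 0.00452). Without the 3 libraries with concentrated reads the differences of these 5 tiles were -8.06, -6.84, -9.62, -4.85 and -5.05 points in the order given, so each was smaller but kept its sign.

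Among the shore tiles that were higher under L-DOPA, the smallest unadjusted p belonged to chromosome 10 at 102926001 to 102926250, which touches its island tile and has 7 CpGs and at least 638 reads in every library. It ran from 19.02% through 22.5% to 27.0% in L-DOPA, from 15.5% through 17.8% to 23.1% in lesioned saline and from 19.5% through 20.8% to 22.8% in unlesioned saline libraries. The difference of 3.87 points (SE 1.32, unadjusted p = 0.00218) was the smallest of the 10 named tiles, at the greatest depth. Chromosome 12 at 38868001 to 38868250, of 6 CpGs, ran from 20.7% through 31.0% to 37.5% in L-DOPA, from 10% through 20.3% to 25.3% in lesioned saline and from 16.9% through 23.7% to 33.7% in unlesioned saline libraries. There the difference was 9.94 points (SE 3.18, unadjusted p = 0.00255), and 4 of the 7 L-DOPA libraries lay above all lesioned saline libraries.

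Chromosome 20 at 49987751 to 49988000, of 7 CpGs, ran from 31.9% through 38.0% to 43.3% in L-DOPA, from 25.9% through 29.4% to 46.5% in lesioned saline and from 23.6% through 33.2% to 35.3% in unlesioned saline libraries (6.59 points, SE 2.75, unadjusted p = 0.00661). Lesioned saline replicate 3 held the highest value of the whole tile, against the direction of the difference. Chromosome 2 at 81903001 to 81903250, of 5 CpGs, ran from 47.4% through 65.6% to 71.3% in L-DOPA, from 44.4% through 52.0% to 66.1% in lesioned saline and from 48.6% through 60.9% to 69.3% in unlesioned saline libraries (8.71 points, SE 3.92, unadjusted p = 0.00953). Chromosome 1 at 13508501 to 13508750, of 7 CpGs, ran from 18.2% through 32.4% to 40.6% in L-DOPA, from 5.26% through 21.6% to 41.5% in lesioned saline and from 4.00% through 20.5% to 38.7% in unlesioned saline libraries (9.63 points, SE 4.82, unadjusted p = 0.0146). In all 10 named tiles L-DOPA and lesioned saline libraries overlapped. Without the 3 libraries with concentrated reads these 5 differences were 3.88, 11.1, 6.69, 11.0 and 6.92 points, and the unadjusted p of the chromosome 1 tile was then 0.0520.

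**Figure D5:**
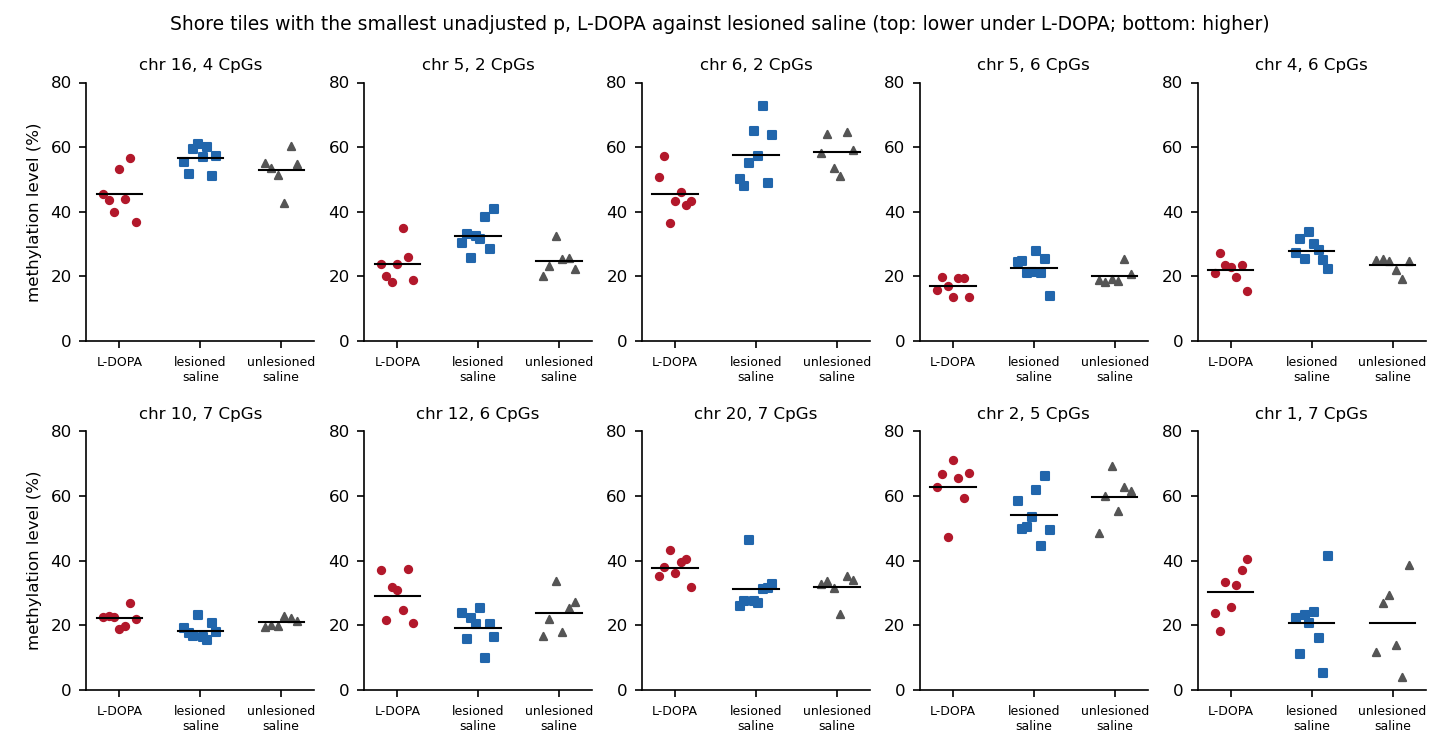
Methylation level (%) in each L-DOPA, lesioned saline and unlesioned saline library (points) and group mean (line) for the 5 shore tiles with the smallest unadjusted p among those lower (top) and higher (bottom) under L-DOPA than under lesioned saline, named by chromosome and number of CpGs. The L-DOPA and lesioned saline points overlap in all 10, and differences of the means run from -11.9 to 9.94 points.

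For lesioned against unlesioned saline, 79 shore tiles (3.33%) had an unadjusted p under 0.05 in the quasi-binomial model, against 3.42% of all tiles, and 0 passed adjustment, against 0% of all tiles. Without the 3 libraries with concentrated reads there were 235 (9.90%, against 6.64% of all tiles and 10.1% of the other intermediate tiles). For L-DOPA against unlesioned saline there were 151 (6.36%), against 6.25% of all tiles, and 0 passed, against 0% of all tiles. The unlesioned libraries chose the tiles in both comparisons, so their values are a description and nothing is read from these counts, with or without the 3 libraries. The lesioned saline libraries enter one comparison here and the one above, and the L-DOPA libraries likewise.

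The tiles at either end of these comparisons, in the order of p, are given as values only, since the unlesioned values also chose them. The first of those lower in lesioned than in unlesioned saline libraries was chromosome 20 at 9337251 to 9337500, of 7 CpGs. It ran from 3.70% through 14.8% to 22.6% in lesioned saline and from 21.8% through 25.2% to 58.0% in unlesioned saline libraries, with L-DOPA at 13.4% to 25.5%. Unlesioned saline replicate 4 set the upper end, with the next library at 33.5%. Chromosome 3 at 167033001 to 167033250 averaged 11.9% ± 6.65 in lesioned and 24.9% ± 7.68 in unlesioned saline libraries, and chromosome 4 at 165425501 to 165425750 averaged 20.3% ± 3.92 and 31.0% ± 7.30. In the other direction, chromosome 4 at 191233251 to 191233500 averaged 80.3% ± 6.21 in lesioned and 69.8% ± 7.90 in unlesioned saline libraries, and chromosome 1 at 207215751 to 207216000 averaged 42.9% ± 3.72 and 34.3% ± 4.74. The chromosome 5 tile at 62639001, named above, was also in this direction, with 32.6% ± 4.90 in lesioned and 24.8% ± 4.26 in unlesioned saline libraries.

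Of the tiles lower in L-DOPA than in unlesioned saline libraries, likewise given as values only, the first by p was chromosome 17 at 92463251 to 92463500, where L-DOPA libraries averaged 55.8% ± 2.98, against 62.9% ± 3.62 in unlesioned saline libraries. The L-DOPA range, 50.2% to 58.5%, ended just under that of the unlesioned libraries, 58.6% to 68.5%. Chromosome 10 at 103760501 to 103760750 averaged 55.4% ± 6.72 in L-DOPA and 66.5% ± 5.30 in unlesioned saline libraries, and the chromosome 6 tile at 139496751 averaged 45.6% ± 6.66 and 58.4% ± 5.49. In the other direction, the chromosome 4 tile at 191233251 averaged 80.02% ± 7.63 in L-DOPA libraries, as high as in lesioned saline libraries, chromosome 12 at 1215501 to 1215750 averaged 32.9% ± 6.66 against 24.8% ± 3.20, and chromosome 11 at 37942501 to 37942750 averaged 70.9% ± 10.7 against 57.4% ± 9.35. Without the 3 libraries with concentrated reads, 134 shore tiles (5.64%, against 5.95% of all tiles) had an unadjusted p under 0.05 in this comparison.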

How the data were processed

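Per the labels, bisulfite-converted DNA was read from one end over 50 bases. The tools listed by the submitters' processing notes are Bismark 0.13.0, methylKit 0.9.2, SAMtools 0.1.19, Trim Galore 0.3.7 and FastQC 0.10.1. For each cytosine of a CpG the deposited files hold the count of reads over it and, computed by the authors, the percent of those reads showing C or T. Every listed cytosine had at least 10 reads. Per the labels, reads were mapped to rn5 and de-duplicated.

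Methylated counts were recovered from percent and coverage (whole for 100% of the cytosines), both strands of a CpG were added, and counts were summed over tiles of 250 bp. A tile entered a library with at least 2 CpGs. Tests used tiles of chromosomes 1 to 20 and X measured in at least 5 libraries of each group, with pooled methylation of 1% to 99%. The quasi-binomial model was fitted to all 21 libraries in 3 groups, its dispersion was moderated as limma's squeezeVar does, with a floor of 1, and the F-test on the deviance was two-sided. The median dispersion of the model was 4.52 in shore tiles and 3.31 in all tiles, where 1 is counting error alone. It was also run on simulated counts, with a dispersion near that of all tiles and alike in every library. That run therefore does not cover the larger spread of shore tiles. Differences are between unweighted group means, in percentage points, with standard errors from the spread between libraries. Python 3.11.15, numpy 2.4.6, scipy 1.17.1, pandas 2.3.3, matplotlib 3.10.9, R 4.3.3 and limma 3.58.1 were used.

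Members and lists were chosen with earlier results of these data known. Named were the shore tiles with the 5 smallest p in each direction for L-DOPA against lesioned saline and the 3 smallest for the other comparisons, the 3 of largest and of smallest SD over lesioned saline libraries, the 5 of largest outward rise and the 3 islands with most shore tiles. A list of striatal genes could not be placed without an rn5 annotation. Same-numbered pairs of L-DOPA and lesioned saline libraries correlated above 0.1 in 3 of 7 cases, against 10 of 49 pairs with different numbers. So few pairs cannot show whether replicate numbers pair the libraries. Alternatives were another model, coverage limits, tile filters, library series, a replicate block, other limits of the rule and libraries left out in turn.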

Additional observations from a re-analysis of the deposited data

Results flagged for a closer look

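Of 63 sets of values from one group of libraries, 6 held a library far from the rest of its group. About 1 in 20 sets would by chance, but that figure does not hold for tiles named for a large spread over the lesioned saline libraries, among them those on chromosome 10 at 4522501 and chromosome 3 at 129617001, and it assumes sets chosen without regard to their values. In lesioned saline replicate 2, 79.9% of the shore tiles were at 20% to 80%, against 86.0% in the next library of its group. In the tile on chromosome 5 at 161163501, unlesioned saline replicate 5 stood at 25.3% and the next at 20.7%. In the tile on chromosome 20 at 49987751, lesioned saline replicate 3 had 46.5% and the next library 32.8%, and unlesioned saline replicate 4 had 23.6% and the next library 31.7%. In the tile on chromosome 10 at 4522501, L-DOPA replicate 7 stood at 63.1% and the next at 47.6%. In the tile on chromosome 3 at 129617001, lesioned saline replicate 6 stood at 68.2% and the next at 44.2%. What lies behind these values was not tested.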

How the results depend on the processing

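The read ratio as a model term, and the removal of the 3 libraries with concentrated reads, were chosen after seeing the data. For L-DOPA against lesioned saline, no shore tile passed in any setting except the logistic model without overdispersion, which called 462 (19.5%, against 16.6% of all tiles) and had 766 with an unadjusted p under 0.05 (32.3%, against 29.2%); that model takes reads as the only source of spread. The unadjusted count of 67 (2.82%, against 3.83% of all tiles) became 106 (4.47%, against 4.35%) without the 3 libraries. With 1 library left out the lowest count was 57 (2.40%), without L-DOPA replicate 3 (against 3.61% of all tiles) or lesioned saline replicate 6 (against 3.49%). The highest was 112 (4.72%, against 4.92%), without L-DOPA replicate 1. The count was 52 (2.19%, against 3.42% of all tiles) with the replicate block, though it is not known whether the numbers pair the libraries. It was 93 (3.92%, against 4.68%) with the read ratio in the model and 50 (2.11%, against 4.01%) in limma. In the rest it ran from 57 (2.65%, against 3.80%), with at least 20 reads per cytosine, to 99 (4.17%, against 3.97%), in series 1 alone. The mean difference of -1.10 points ran from -1.77 to -0.0451 with 1 library left out, nearest 0 without L-DOPA replicate 3 (-0.0731) or 7 (-0.0451), and from -1.96 to -0.662 in the other planned settings; without the 3 libraries it was 1.40 points. The count for lesioned against unlesioned saline was 235 without them, against 79. The share of tiles that rise outwards was 56.9% in tiles of 4 to 7 CpGs. The median SD of 6.24 points was 7.20 in L-DOPA libraries, 5.59 there without replicates 3 and 7, 5.64 with at least 20 reads per cytosine, and 5.90 to 6.35 with 1 library left out. For the other changes the cause was not tested. The named tiles gave 179 values in other settings, of which 0 changed sign and 0 passed; they were selected on small p in these same libraries. With a median standard error of 3.62 points per tile, differences of a few points were not detectable at this depth and spread. Adjustment ran over 180850 tiles, and even the named tile with -11.9 points (SE 4.03) had an adjusted p of 0.9999 in the quasi-binomial model. That no shore tile passed therefore does not exclude differences of this size in single tiles.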
